A study of Mus musculus with 4 samples.

Results

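The heme diet was set against the control diet in the surface cells of the mouse colon, the flattened top of the mucosa that faces the gut contents. Of 19938 genes with a value, 10282 were described, namely those whose higher surface array reached a floor of 5.75 on the log2 scale. The floor is the median over every gene and all 4 arrays of the study. The value of a gene was the mean of its probe sets with 1 gene symbol, and its difference was the heme surface array minus the control surface array. Higher and lower are used below for a difference of at least 2-fold, which is 1 on the log2 scale.

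All mice were male C57BL/6 animals, 11 weeks old, on a diet rich in fat (40% of energy) and poor in calcium for 14 days. The control surface group was a pool of RNA from 4 mice on this diet alone. The heme surface group was a pool from 3 mice on the same diet with heme added at 0.5 µmol/g. Crypt cells of the same mice formed the other two pools, and each of the 4 pools was hybridised to 1 array. Cells were cut from frozen rolls of the middle 2 cm of the colon by laser capture microdissection, in which a laser lifts chosen cells from a tissue section.

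With 1 pool on 1 array per diet there are no replicates, so no value below has an error, no test was run, and every count rests on a rule of size alone. The spread between mice is unknown. The gene and marker lists used below were chosen with earlier results of these data known, so counts over them are descriptions only. The surface label fitted the markers: on the control diet, 17 of 20 markers of surface colonocytes read at least 2-fold above the crypt array, and the water channel gene Aqp8 read 12.50 in control surface cells against 7.34 in control crypt cells. Lgr5, the stem cell receptor gene of the crypt base, read 4.76 and 5.55 on the surface arrays, below the floor on both. No nerve or glial marker of 8 reached the floor on any array.

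Surface colonocytes absorb salt, water and short fatty acids, conjugate and export foreign compounds, and are shed into the lumen. Heme is a reactive iron porphyrin that oxidises lipids. Cells meet oxidants and electrophiles through the transcription factor NRF2, which pairs with small MAF proteins on antioxidant response elements near genes of glutathione synthesis, conjugation and export. Interferon genes carry another element, bound by IRF and STAT factors, and stress and growth factor signals act through AP-1, a dimer of FOS and JUN proteins.

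Promoters were read from RefSeq on GRCm38.p6, from 250 bases before to 50 after each annotated start, and matched 312 of the 372 higher and 166 of the 207 lower genes. The antioxidant core TGACNNNGC, on either strand, was in 17.3% of 394 promoters of higher genes, 11.1% of 208 promoters of lower genes, 14.2% of 9965 promoters of described genes that were neither, and 12.4% of all 32851 promoters. The AP-1 site TGAGTCA was in 11.7%, 7.69%, 3.75% and 5.2% of the same sets. The interferon core, GAAA followed after any 2 bases by another GAAA, was in 1.52%, 8.65%, 2.72% and 3.44%. Of 3 more words searched, the ATF element TGATGCAA was in 2.28%, 0.962%, 0.562% and 0.895%, and the sterol element TCACNCCAC in 2.54%, 1.44%, 1.1% and 1.24%. The PPAR repeat was in 13 of all promoters and in none of the higher or lower genes. A match is a run of letters and not a bound site.

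The antioxidant core can contain the AP-1 site read on the other strand, as TGACTCAGC. This longer word was in 10 of 394 promoters of higher genes (2.54%), in none of 208 promoters of lower genes and in 0.454% of all promoters. It lay before the start, with 16 bases to spare on each side, in 6 higher genes, which are printed here because 1 stretch holds both words. Capitals mark the antioxidant core.

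Pir (chrX:164269201-164269241, minus strand): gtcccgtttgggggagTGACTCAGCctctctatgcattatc
Ikbkg (chrX:74424558-74424598, minus strand): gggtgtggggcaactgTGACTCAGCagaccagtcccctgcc
Acox2 (chr14:8259008-8259048, plus strand): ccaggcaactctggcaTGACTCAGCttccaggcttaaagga
Sprr1a (chr3:92486005-92486045, plus strand): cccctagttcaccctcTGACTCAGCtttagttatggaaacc
Prdx1 (chr4:116685450-116685490, minus strand): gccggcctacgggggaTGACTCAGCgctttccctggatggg
Mt2 (chr8:94172523-94172563, plus strand): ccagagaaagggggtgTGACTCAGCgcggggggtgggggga

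Gclm and Abcc2, with larger differences, held the core without the AP-1 site.

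Gclm (chr3:122245407-122245447, minus strand): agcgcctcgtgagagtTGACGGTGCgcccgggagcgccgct
Abcc2 (chr19:43782194-43782234, plus strand): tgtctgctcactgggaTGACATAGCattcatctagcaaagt

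Among the 26 lower genes of the interferon list, 20 had a promoter in the table and 9 held the interferon core before the start. The list is made of interferon response and antigen presentation genes. The same count was not made for its members that were not lower, so the 9 cannot be tied to the heme difference. Capitals mark the interferon core. Ifit1bl2 and Ifit1 are head-to-head neighbours whose promoter windows overlap, so the same stretch belongs to both. Trim30d and Trim30a held identical letters at separate places.

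Ifit1bl2 and Ifit1 (chr19:34640769-34640810, minus strand): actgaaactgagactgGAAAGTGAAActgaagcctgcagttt
Trim30d (chr7:104507865-104507906, plus strand): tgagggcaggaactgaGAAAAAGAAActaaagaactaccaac
Oas3 (chr5:120777709-120777750, minus strand): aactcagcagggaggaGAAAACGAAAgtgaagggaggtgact
Ddx60 (chr8:61928018-61928059, plus strand): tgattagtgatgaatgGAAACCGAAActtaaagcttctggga
Gbp3 (chr3:142559983-142560024, minus strand): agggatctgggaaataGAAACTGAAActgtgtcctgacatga
Gbp7 (chr3:142530267-142530308, minus strand): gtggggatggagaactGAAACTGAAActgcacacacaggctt
Irgm1 (chr11:48871425-48871466, minus strand): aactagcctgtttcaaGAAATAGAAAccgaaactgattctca

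Over the 10282 genes, 372 were higher on heme (3.62%) and 207 were lower (2.01%). The median difference was -0.02 and the central 95% of genes lay between -0.91 and 1.18. Of the 10282 genes, 4989 had a difference above 0 and 5290 below 0. Larger differences lay more often on the higher side: 79 genes were at least 4-fold higher (0.768%) and 26 at least 4-fold lower (0.253%), and 24 (0.233%) and 7 (0.0681%) were past 8-fold. At 1.5-fold the counts were 1084 (10.5%) and 814 (7.92%), and at 3-fold 141 (1.37%) and 55 (0.535%). The 372 higher genes had a median of 7.09 on control and 8.84 on heme, and the 207 lower genes 8.21 and 6.65. Of the 10282 genes, 979 reached the floor on 1 surface array only. Of the 9303 with both arrays at or above it, 282 were higher (3.03%) and 153 lower (1.64%). In 90 of the higher and 54 of the lower genes the lower array was below the floor, where the size of a difference is uncertain. Such genes were described only because of their higher array, so each could differ in 1 direction only. This also holds within the list counts below. The median difference also moved with level, from -0.14 over the 2057 genes with the lowest mean level to 0.14 over the 2057 with the highest.

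The split depended on the scale. Ribosomal protein genes had a median of 9.75 on the control and 9.61 on the heme surface array. Centring the arrays on them gave 516 higher and 149 lower genes, and centring on the median of all genes gave 467 and 158. Single calls were followed over 5 other scales: log2(2^value + 32), which damps differences between low values, both centrings, cyclic loess and quantile normalization of gene values. The calls followed were the 40 largest differences each way among named genes and all list members past the rule. Of these 281 called genes, 187 kept their call on all 5.

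**Figure D1:**
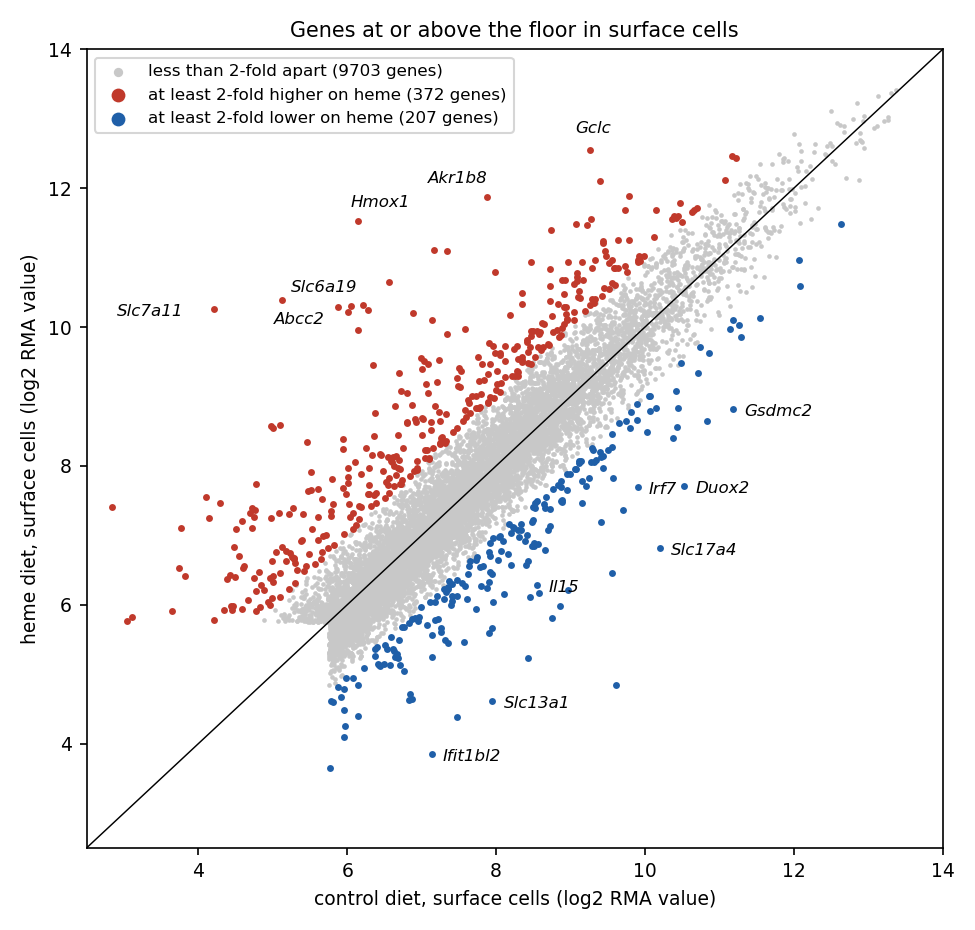
Value of each of the 10282 genes in control surface cells (x axis, log2 RMA value) and in heme surface cells (y axis, same scale), 1 array per axis, with the line of equal values. The 372 genes at least 2-fold higher on heme (red) spread further from the line than the 207 lower ones (blue).

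Several genes of glutathione supply were higher on heme. Of 20 members of the glutathione list, 8 were higher and none lower, 18 had a difference above 0, and the median was 0.48. Over all 10282 genes, 3.62% were higher and 2.01% lower, and these shares stand beside every list count below. Slc7a11, encoding the cystine importer that feeds glutathione synthesis, read 4.21 on control and 10.27 on heme, a value below the floor against one well above it. Gclc, encoding the catalytic subunit of the enzyme that joins glutamate and cysteine, read 9.26 and 12.55. Its modifier subunit gene Gclm read 8.74 and 11.40. The later steps had smaller differences. Glutathione synthetase (Gss) read 9.28 and 10.86, and the reductase Gsr, which returns oxidised glutathione to its reduced form, 8.73 and 10.59. The peroxidase gene Gpx2 (difference 1.56), the glyoxalase gene Glo1 (1.24) and Chac2 (1.07) completed the 8. Slc3a2, encoding the heavy chain that partners the cystine importer, differed by 0.83, from 9.74 to 10.57. In crypt cells the differences of Slc7a11, Gclc, Gclm and Gsr were 1.80, 1.19, 0.92 and 0.98, and the list median was 0.15.

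Peroxide and disulfide reducing systems moved less far. Of 21 members of the thioredoxin, peroxiredoxin and superoxide list, 5 were higher. None was lower, and the median was 0.40. Sulfiredoxin (Srxn1), which repairs overoxidised peroxiredoxins, read 9.33 and 10.96. Prdx1 read 8.83 and 10.33, and catalase (Cat), the peroxisomal enzyme that splits hydrogen peroxide, 8.50 and 9.94. Prdx3 (1.10) and Txnrd1 (1.07) were also higher. The difference of Cat in crypt cells was 0.05 and that of Srxn1 was 1.25. The NRF2 gene itself, Nfe2l2, read 9.93 and 9.77, and its repressor gene Keap1 read 7.74 on both surface arrays. Bach1, encoding a heme-sensing repressor of the same elements, differed by 0.82.

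Glutathione S-transferases, which attach glutathione to electrophiles, had 12 of 20 members higher. None was lower, and the median was 1.17 against 0.26 in crypt cells. Gsta4, whose product acts on lipid aldehydes, read 7.75 and 9.58, Gstp1 10.12 and 11.30, and Gsto1 9.92 and 11.02. The 3 microsomal members Mgst1, Mgst2 and Mgst3 differed by 1.17, 1.21 and 0.84. A run of 6 neighbouring genes at chr3:107926334-108045179 was higher throughout: Gstm7 (1.38), Gstm6 (2.59), Gstm3 (2.12), Gstm2 (1.49), Gstm1 (1.80) and Gstm4 (1.22). Gstm5 differed by 0.85. Gstm6 read 3.82 on control, below the floor. These genes are close paralogs, and how far their probe sets read one another was not tested.

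Enzymes that reduce or oxidise carbonyls and aldehydes included 6 genes past 8-fold. Of 34 members, 15 were higher. None was lower, and the median was 0.84 (0.20 in crypt cells). Ptgr1, encoding a reductase of lipid enals, read 6.01 and 10.21. Cbr3, a carbonyl reductase gene, read 6.21 and 10.32, and its neighbour Cbr1 11.07 and 12.11. The quinone reductase gene Nqo1 read 6.56 and 10.65. Ptgr1, Cbr3 and Nqo1 had a control value near the floor and a heme value above 10, while Cbr1 was already high on control. The aldo-keto reductase genes Akr1b8 (7.88 and 11.87), Akr1c18 (3.77 and 7.10) and Akr1c12 (8.91 and 10.29) followed. Aldehyde dehydrogenase genes were high on heme as well, with Aldh1a1 at 9.39 and 12.10, Aldh1a7 at 6.89 and 10.21 and Aldh9a1 at 8.24 and 9.69. Aldh1a1 and Aldh1a7 are adjacent paralogs. Dhrs9 (1.44), Cbr2 (1.27), Akr1c13 (1.11), the soluble epoxide hydrolase gene Ephx2 (1.10) and Nqo2 (1.03) were higher by smaller amounts.

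NADPH drives both reductases and glutathione recycling. Of 18 genes of its supply, 3 were higher and 1 lower, with a median of 0.31. Malic enzyme (Me1) read 6.28 and 10.24. Of the pentose phosphate route, transketolase (Tkt) read 9.44 and 11.20 and phosphogluconate dehydrogenase (Pgd) 10.15 and 11.69, while Taldo1 differed by 0.85. The mitochondrial malic enzyme gene Me3 was lower, at 6.23 and 5.09. The next enzymes of xenobiotic handling were divided. The glucuronosyl and sulfo transferase list also holds Ugt8a and Ugp2, which encode other enzymes. Its Ugt1a genes had no value, so that family of glucuronosyl transferases was not read. Among its 11 genes at the floor, Ugt8a (2.97), Ugp2 (1.38) and Sult2b1 (1.28) were higher and Sult1a1 (-1.35) and Sult1c2 (-1.21) lower. Of 24 cytochrome P450 genes, Cyp2j6 (1.83), Cyp2c65 (1.63), Cyp2c68 (1.02) and Cyp4f16 (1.00) were higher, and the sterol hydroxylases Cyp27a1 (-1.22) and Cyp39a1 (-1.04) were lower, with a median of 0.03. Of the genes in the last 5 paragraphs, Chac2, Prdx3, Txnrd1, Gstm4, Gstm7, Gstp1, Gsto1, Mgst1, Mgst2, Akr1c13, Ephx2, Cbr1, Cbr2, Nqo2, Me3, Sult1c2, Cyp2c68, Cyp39a1 and Cyp4f16 lost their call on at least 1 of the 5 other scales.

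**Figure D2:**
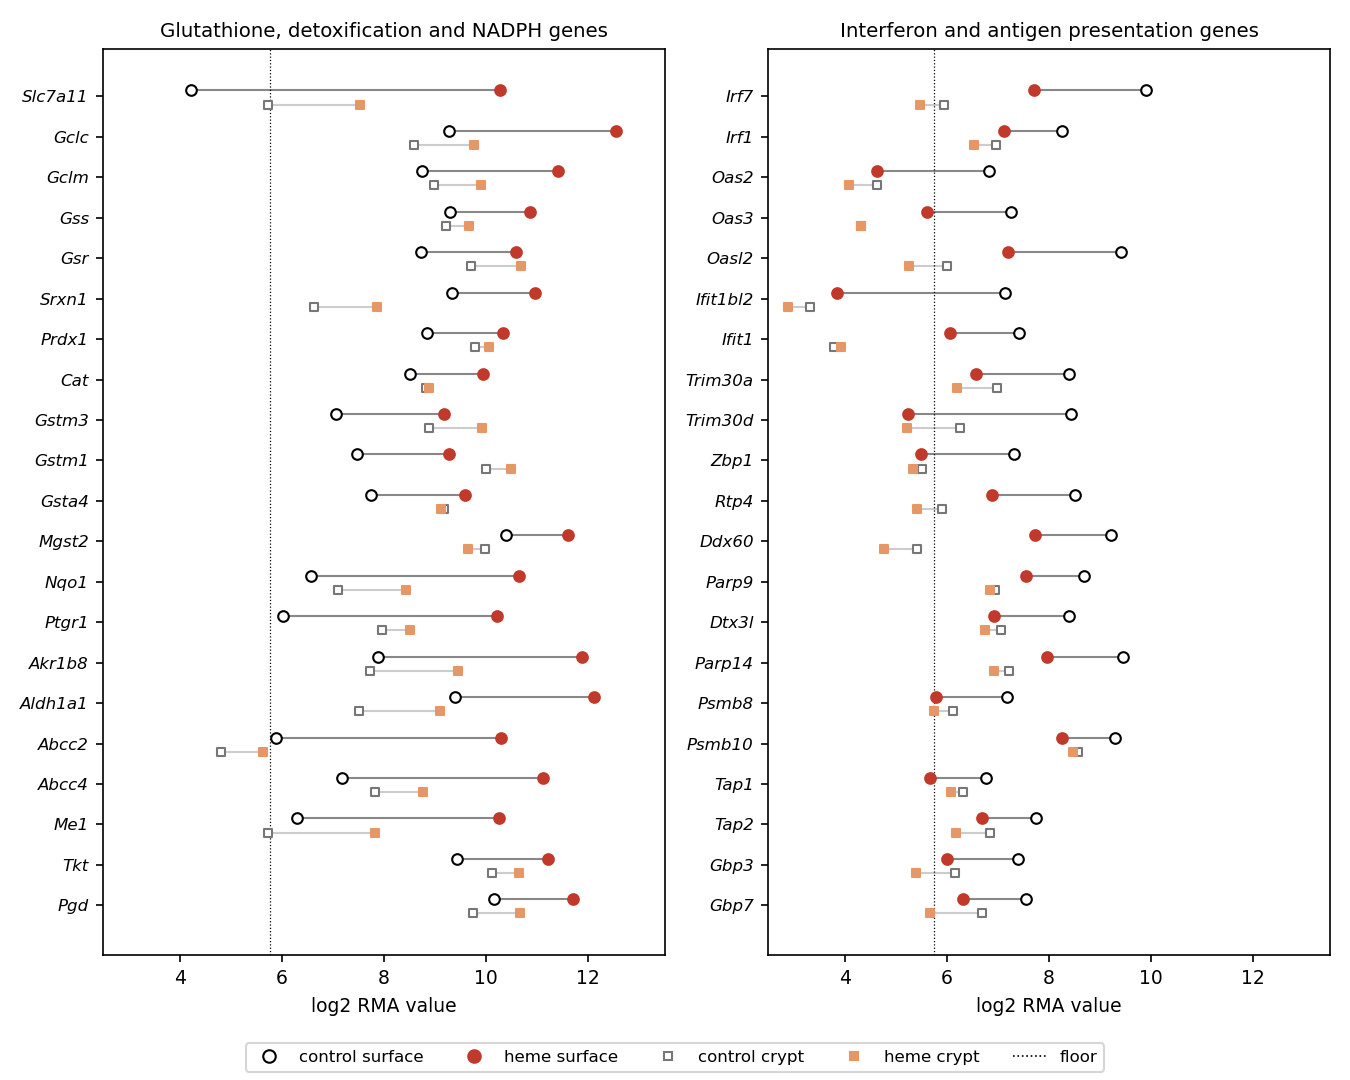
Log2 RMA value of 21 glutathione, detoxification and NADPH genes (left) and 21 interferon and antigen presentation genes (right) on the 4 arrays, 1 point per array. On heme (filled) the left genes lie to the right of control (open) in surface cells (circles) and the right genes to the left, with shorter distances in crypt cells (squares) for most genes, and the dotted line is the floor.

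Export pumps were among the larger differences. Of 22 ABC transporter genes, 6 were higher and 2 lower. Abcc2, encoding a pump for glutathione and glucuronide conjugates, read 5.87 and 10.30, and Abcc4, a pump for cyclic nucleotides and conjugates, 7.17 and 11.10. Abcc5 (1.69), Abcc1 (1.44), the peroxisomal Abcd3 (1.15) and the porphyrin exporter gene Abcg2 (1.03) were higher, and Abcc3 read 10.52 and 11.51, just short of the rule. The 2 lower members form the sterol exporter, whose genes are neighbours: Abcg5 read 7.47 and 4.39 and Abcg8 5.92 and 4.68. The calls of Abcd3, Abcg2 and Abcg8 were lost on at least 1 other scale. Among 13 bile acid genes, which share Abcc2 and Abcc4 with this list, Slc51b, a subunit of the basolateral bile acid exporter, differed by 1.40 and its partner Slc51a by 0.70.

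Heme and iron genes differed at a few points and not across the pathway. Of 22 heme genes, 2 were higher and 1 lower, with a median of 0.27. Hmox1, encoding the oxygenase that opens the heme ring, read 6.14 and 11.53, a 42.0-fold difference, while the next enzyme genes of breakdown, Blvra and Blvrb, differed by 0.62 and 0.15. Slc46a1, encoding a folate carrier that also transports heme, read 8.75 and 5.81. The synthesis genes Alas1 and Alad differed by 0.82 and 0.85. Of 19 iron genes, 3 were higher: the transferrin receptor gene Tfrc (8.19 and 10.17), the iron sensor gene Aco1 (8.65 and 10.04) and the ferritin light chain gene Ftl1 (11.17 and 12.46). The heavy chain gene Fth1 read 12.92 and 12.97. The iron importer gene Slc11a2 differed by -0.86 and the exporter gene Slc40a1 by 0.71.

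Of 24 metallothionein, zinc and copper genes, Mt1 (10.45 and 11.59), Mt2 (10.37 and 11.56) and Mt4 (4.76 and 7.37) were higher. Metallothioneins bind zinc and copper. The manganese exporter gene Slc30a10 was lower, at 8.86 and 5.98. In crypt cells, Mt2 differed by 1.85, more than in surface cells, and Mt4 by 0.05. Mt1 and Mt2 lost their calls on 1 of the other scales.

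Carrier genes of the cell surface differed in both directions. Of 31 amino acid and peptide transporter genes, 8 were higher and 4 lower, with a median of 0.09. Slc6a19, the neutral amino acid carrier typical of the small intestine, read 5.12 and 10.38, from below the floor. Slc1a4, a carrier of alanine, serine and cysteine, read 6.05 and 10.30. Slc3a1 and Slc7a9, the 2 subunits of the cystine and dibasic amino acid carrier, differed by 2.40 and 2.39, to heme values of 11.48 and 9.39. The basolateral carrier gene Slc7a7 (1.45), the glycine carrier gene Slc6a9 (1.44) and the taurine carrier gene Slc6a6 (1.03) followed. Slc43a3 (-1.38), the glutamate and cysteine carrier gene Slc1a1 (-1.32), the neutral amino acid carrier gene Slc1a5 (-1.27) and Slc6a20a (-1.02) were lower. Slc6a6, Slc1a1 and Slc6a20a lost their calls on other scales.

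Carrier genes for phosphate, sulfate, sugars and vitamins were mostly within 2-fold, and more were lower than higher. Of 39 members, 6 were lower, 1 was higher and 32 were neither. The median was -0.12 and reached 0.00 on another scale. Slc17a4, encoding an organic anion and phosphate carrier, read 10.20 and 6.82. The sulfate carrier gene Slc13a1 read 7.95 and 4.62, and the phosphate carrier gene Slc34a2 9.70 and 7.37. Slc37a2, a sugar phosphate carrier gene, read 10.83 and 8.65. Apart from Slc13a1, these genes stayed above the floor on heme. Slc2a13 (-1.10, lost on 3 other scales) was also lower, and Slc16a5, a monocarboxylate carrier gene, was higher at 9.64 and 11.25. The butyrate carrier gene Slc5a8 differed by -0.79.

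Of 47 electrolyte and water transport genes, 4 were higher and 2 lower. The sodium bicarbonate cotransporter gene Slc4a4 read 8.58 and 6.18, and the calcium channel gene Trpv6 6.84 and 4.72. Scnn1g, the gamma subunit of the epithelial sodium channel, read 7.18 and 8.87, and carbonic anhydrase 2 (Car2) 11.22 and 12.44. Sgk2 (1.07) and Kcnma1 (1.03) were higher too. The 2 probe sets of Kcnma1 did not both pass 1, and its call and that of Sgk2 were lost on 1 other scale. In crypt cells Slc4a4 and Trpv6 differed by -0.01 and -0.13.

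Many genes of fatty acid oxidation were higher on heme. Of 48 members of a list that also holds targets of the fatty acid receptor PPAR alpha, 18 were higher and none lower. A difference above 0 was found in 45, against 4989 of all 10282 genes. The median was 0.77 in surface cells against 0.09 in crypt cells. Pdk4, whose product keeps pyruvate out of the citric acid cycle, read 6.15 and 9.95. Creb3l3, a membrane-bound transcription factor gene of fasting lipid metabolism, read 6.34 and 9.45. The thioesterase genes Acot2 (7.14 and 10.11), Acot4 (6.80 and 9.05) and Acot12 (5.04 and 6.76) were also higher. These 5 genes had crypt differences between 0.03 and 0.66.

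The steps of the mitochondrial route were represented one after another. Acsl5, which activates fatty acids, read 9.05 and 10.61, Cpt2 at the inner membrane 8.59 and 9.93, and the dehydrogenase gene Acadl 9.48 and 11.03. The adjacent genes Hadha (10.49 and 11.52) and Hadhb (9.42 and 10.45) encode the 2 subunits of the trifunctional protein, and the thiolase gene Acaa2 read 8.91 and 10.05. Cpt1a, the gate of the route, differed by 0.36. Peroxisomal genes included Acox2 (4.98 and 7.26), Pex11a (7.13 and 8.63) and Hsd17b4 (8.71 and 9.74). Fabp2 (1.32), Slc27a4 (1.23), Acsl4 (1.21) and Vnn1 (1.57) were higher as well. Ppara itself, a member of this list and of the nuclear receptor list, had the lowest difference of the 48, at -0.67, from 6.95 to 6.28, and the coactivator gene Ppargc1a was lower, at 8.88 and 7.48. Hadha, Hadhb, Acaa2, Hsd17b4, Acsl4 and Slc27a4 lost their calls on at least 1 other scale.

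Respiratory chain, proteasome and chaperone genes shared small differences of the same sign. Of 70 oxidative phosphorylation genes, 67 were above 0, with a median of 0.48, but only 5 were higher and none lower: Ndufb6 (8.91 and 10.47), Ndufa4 (1.14), Ndufa9 (1.11), Ndufs1 (1.03) and Ndufs5 (1.00). All but Ndufb6 lost their call on other scales. Of 34 proteasome genes, 33 were above 0 with a median of 0.70, and Psma5 (7.59 and 8.80) and Psmd14 (8.00 and 9.09) were higher. Psmd14 lost its call under quantile normalization of gene values. Of 31 heat shock and unfolded protein chaperone genes, 30 were above 0 with a median of 0.47 and none passed the rule, the largest difference being that of Hspa5, from 10.35 to 11.32. Over all 10282 genes, 4989 were above 0. Many of the genes in these lists are abundant, and the median difference over the 2057 genes with the highest level was 0.14. Over the other scales the medians of the 3 lists lay between 0.33 and 0.62, 0.50 and 0.83, and 0.32 and 0.56.

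Of 23 cholesterol genes, the synthesis genes Idi1 (8.55 and 9.94), Hsd17b7 (1.28), Tm7sf2 (1.05) and Lss (1.02) were higher, and the only lower members were the exporter genes Abcg5 and Abcg8. The median was 0.58 in surface and 0.50 in crypt cells. Of 23 lipid synthesis genes, Agpat2 (9.47 and 11.10), Lpin2 (9.09 and 10.67), Elovl1 (1.25) and Scd1 (1.01) were higher, and the desaturase gene Fads2 (9.39 and 8.20) was lower. Agpat2 and Lpin2 act at successive steps towards diacylglycerol, as does Gpat3 before them, which read 7.34 and 9.90. The difference of Scd1 was larger in crypt cells, at 2.22. Among 26 genes of the ATF4 and amino acid response, Slc1a4, Cth (1.68), Vldlr (1.44), Asns (1.08) and Phgdh (1.02) were higher and Slc1a5 lower. Cth makes cysteine from cystathionine. Of 18 tRNA synthetase genes, Wars (1.01) was higher. Tm7sf2, Lss, Elovl1, Scd1, Asns, Phgdh and Wars lost their calls on at least 1 other scale.

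**Figure D3:**
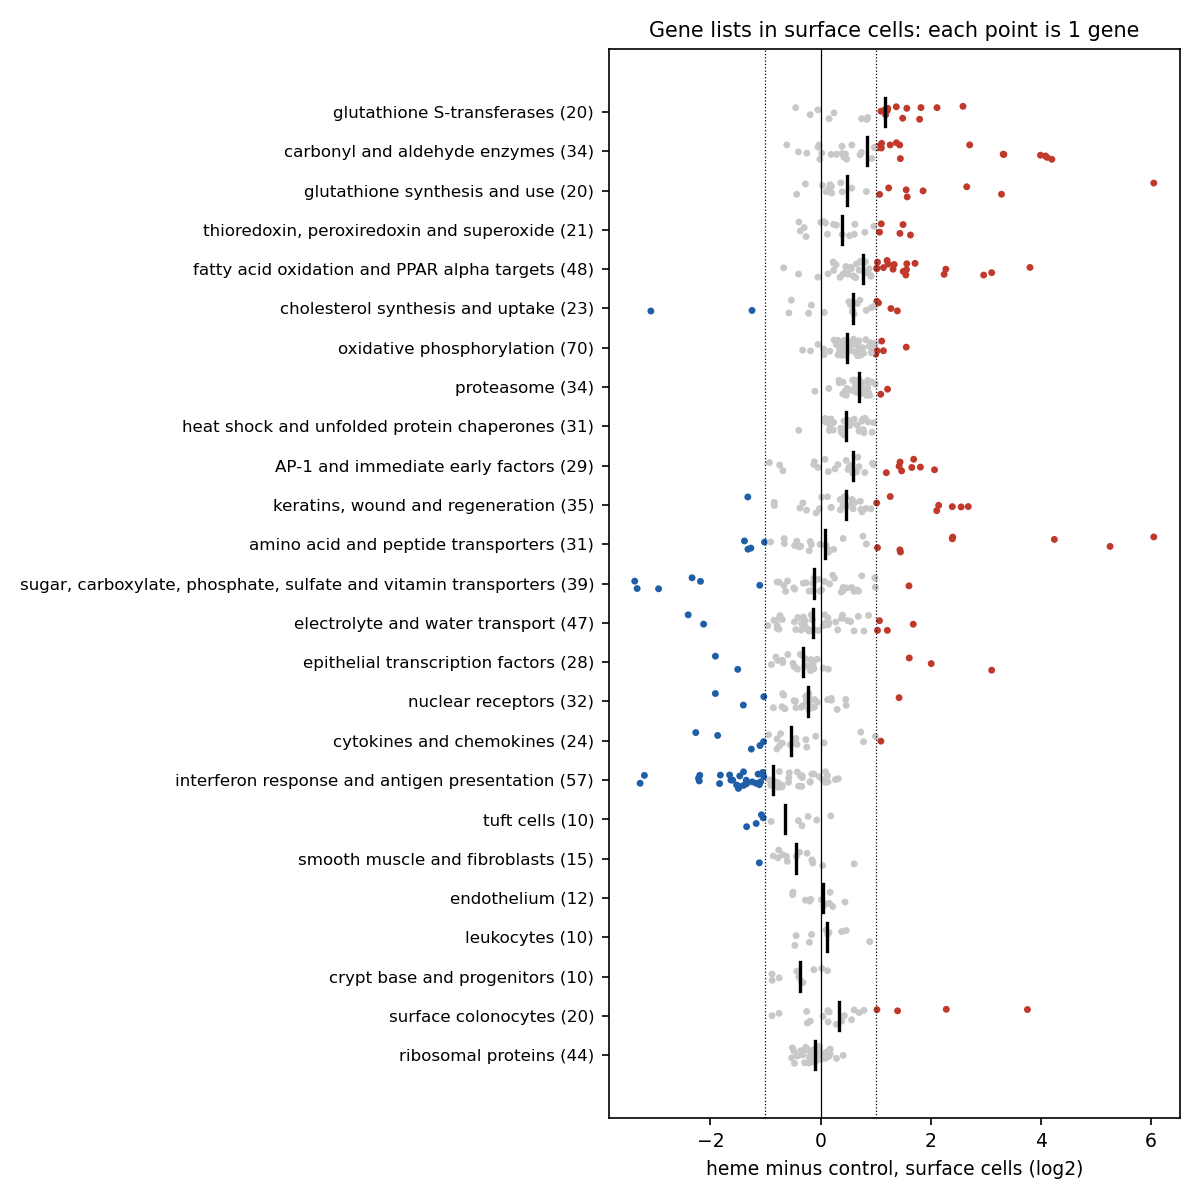
Difference of each gene (heme minus control in surface cells, log2) in 25 gene lists, with the number of genes at or above the floor in brackets and the list median as a black bar. Red and blue points are past 2-fold (dotted lines). The transferases and carbonyl enzymes lie furthest right and the interferon list furthest left, at medians of 1.17, 0.84 and -0.87, and ribosomal proteins lie at -0.09.

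Several genes that answer growth factors, wounding and stress were higher in heme surface cells. Of 29 AP-1 and immediate early genes, 8 were higher. None was lower, and the median was 0.59 (0.11 in crypt cells). Ier3 read 5.60 and 7.67, Egr1 6.81 and 8.62, and Fos 8.34 and 9.53. Feedback inhibitors of the MAP kinase pathway were in the same group, with Dusp5 at 6.46 and 8.15, Dusp6 at 8.47 and 9.95, and Spry4 at 5.61 and 7.27. Egr2 (1.44) and Nr4a1 (1.43) were higher, and Jund differed by -0.93. Of 13 EGF receptor genes, the ligand genes Ereg (5.01 and 8.55) and Nrg1 (6.30 and 7.97) were higher, with crypt differences of 0.06 and -0.37. Ptgs2, the inducible prostaglandin synthase gene, read 7.50 and 9.41, and Pla2g4f, a phospholipase gene, 7.15 and 8.26. Egr2, Fos and Pla2g4f lost their calls on other scales. Ier3, Egr2, Spry4 and Ereg read below the floor on control, so they could not be counted as lower.

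The plasminogen system was represented at 3 points. Plat and Plau, encoding the tissue and urokinase activators, read 4.72 and 7.40, and 7.64 and 8.91, and the urokinase receptor gene Plaur read 6.99 and 9.55. Of 35 keratin, wound and regeneration genes, 7 were higher and 1 lower, with a median of 0.46 (-0.04 in crypt cells). They also included Phlda1 (7.58 and 9.97), the cornified envelope gene Sprr1a (8.34 and 10.49), S100a11 (8.72 and 10.83) and Anxa1 (10.69 and 11.71). Lama3, a laminin chain gene of the basement membrane, was lower at 10.15 and 8.83. Of 8 Ly6 and uPAR family genes at the floor, Plaur, Ly6g6c (5.94 and 8.39), Ly6d (5.48 and 7.64) and Ly6m (9.59 and 10.85) were higher. Slpi, an inhibitor of secreted proteases, read 5.10 and 8.59. Anxa1 and Ly6m lost their calls on other scales. Plat, Ly6d and Slpi read below the floor on control, so they too could not be counted as lower.

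A further list was drawn up after the values were seen and is given as a description only. Of 28 genes known to answer low oxygen, 8 were higher. None was lower, and the median was 0.51 (0.13 in crypt cells). Stc1 read 4.75 and 7.26, Ndrg1 9.79 and 11.88, and Fam162a 9.73 and 11.68. The surface enzyme gene Car9 read 7.62 and 8.95, and the lipid droplet gene Hilpda 5.10 and 6.46. Higd1a (1.26), Mif (1.10) and Pgk1 (1.02) were higher too. Other genes of the same list did not follow, with the growth factor gene Vegfa at 9.66 and 9.61. Hilpda, Mif and Pgk1 lost their calls on other scales. Stc1 and Hilpda read below the floor on control, so they were described only through their heme value.

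Many interferon and antigen presentation genes were lower on heme. Of 57 members, 26 were lower, against 2.01% of all 10282 genes, and none was higher. A difference below 0 was found in 50, against 5290 of all 10282. The median was -0.87 in surface cells and -0.26 in crypt cells, where 2 were lower. In pooled cells, fewer cells of a type and less RNA per cell cannot be told apart. Irf7, the transcription factor gene that amplifies the response, read 9.90 on control and 7.70 on heme, and Irf1 8.25 and 7.11. The partner factor genes Stat2 and Irf9 both differed by -0.70.

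Genes that detect or restrict viral RNA made up much of the list. The oligoadenylate synthetase genes Oas2 (6.82 and 4.63), Oas3 (7.26 and 5.61) and Oasl2 (9.41 and 7.19) were lower. So were the RNA sensor gene Ddx58 (7.80 and 6.28) and its cofactor gene Ddx60 (9.21 and 7.72). The head-to-head neighbours Ifit1bl2 and Ifit1 read 7.13 and 3.85, and 7.40 and 6.06. Trim30d read 8.43 and 5.23 and Trim30a 8.40 and 6.57. Both pairs are paralogs, and shared probe sequence was not tested. Zbp1, a nucleic acid sensor gene, differed by -1.82, Rtp4 read 8.51 and 6.88, and Herc6 7.26 and 5.66.

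Neighbouring genes went together in 2 runs. At chr16:35831892-35972621, Parp14 (9.44 and 7.97), Dtx3l (8.39 and 6.92) and Parp9 (8.68 and 7.55) encode partners in ADP-ribosylation and ubiquitination. At chr17:34187556-34216321, in the class II region of the histocompatibility complex, Tap1 (6.76 and 5.67), Psmb8 (7.18 and 5.78) and Tap2 (7.74 and 6.69) encode the peptide transporter and a subunit of the immunoproteasome. Psmb10, another such subunit, read 9.29 and 8.26, while the constitutive Psmb6 and Psmb7 differed by 0.89 and 0.87 the other way. B2m, the light chain gene of class I molecules, differed by -0.75. The guanylate binding protein genes Gbp3 and Gbp7 differed by -1.40 and -1.24. None of 5 class II presentation genes at the floor passed the rule, with a median of -0.27 (-0.85 in crypt cells). Irf1, Ifit2, Irgm1, Gbp7, Parp9, Psmb10, Tap1, Tap2 and Xaf1 lost their calls on at least 1 other scale.

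Several cytokine and barrier defence genes were lower. Of 24 cytokine and chemokine genes, 5 were lower and 1 higher, with a median of -0.54. Il15, which sustains lymphocytes within the epithelium, read 8.55 and 6.29. Ccl6 read 8.66 and 6.79, the B cell factor gene Tnfsf13b 6.62 and 5.36, the interleukin 22 receptor gene Il22ra1 9.74 and 8.64, and Cx3cl1 9.11 and 8.07. Of the butyrophilin-like family, which also acts on lymphocytes within the epithelium and was listed after its values were seen, 2 of 3 members at the floor were lower. Btnl1 read 8.34 and 7.08 and Btnl2 7.08 and 5.70, while Btnl9 went from 5.61 to 6.14. Of 19 antimicrobial and acute-phase genes, 4 were lower and 1, Slpi, was higher by 3.49. In this list 11 genes were above 0, and its median of 0.05 lay between -0.07 and 0.24 on the other scales. The adjacent oxidase and maturation factor genes Duox2 (10.53 and 7.72) and Duoxa2 (8.96 and 6.22) were below control in surface cells, and their crypt differences were 0.16 and 0.77. Pigr, the carrier of secreted antibodies, read 12.09 and 10.59, and Ang4 6.42 and 5.15. Ido1, which breaks down tryptophan, read 7.57 and 5.46.

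Cell death genes were mixed. Of 33 p53 and cell death genes, 4 were lower and 1 higher, with a median of 0.20. The gasdermin gene Gsdmc2 read 11.18 and 8.82, the BH3-only gene Bid 7.13 and 5.24, the inflammatory caspase gene Casp4 8.51 and 6.85, and the death receptor gene Fas 6.62 and 5.33. The necroptosis kinase gene Ripk3 was higher at 8.01 and 9.37. In crypt cells Gsdmc2 was lower by more, with a difference of -4.05, and Ripk3 differed by 1.24. Cx3cl1, Tnfsf13b, Il22ra1, Btnl2, Ang4 and Fas lost their calls on other scales.

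Markers of other cell types were set beside these values, over each whole list. Of 19 leukocyte markers, 9 reached the floor on each surface array, the log2 of their summed level was 10.97 on control and 11.13 on heme, and none was past the rule. Among the 10 at the floor on at least 1 surface array, 6 were above 0 and 4 below. Lyz2 had the largest difference, from 7.84 to 8.74, while Ptprc and Cd3e differed by -0.44 and -0.47. Endothelial markers summed to 10.94 on both arrays, with all 12 at the floor. Smooth muscle and fibroblast markers summed to 12.45 and 12.17, with 15 and 14 of 17 at the floor, and Fbln1 (-1.11, lost on 2 other scales) was lower. Tuft cell markers summed to 10.21 and 9.57, with 10 and 5 of 15 at the floor. Dclk1 (7.48 and 6.13), Trpm5 (6.54 and 5.37), Sh2d6 (-1.07) and Siglecf (-1.04) were lower, and all but Dclk1 lost their call on other scales. What part other cells had in the results was not tested.

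Markers common to all epithelial cells stayed within 2-fold, and some markers of single epithelial types did not. Of 12 pan-epithelial markers none passed the rule, with differences from -0.81 to 0.61 in both directions, and their summed level was 15.35 and 15.42. Of 20 surface colonocyte markers, Clca4b (7.34 and 11.10), its neighbour Clca4a (10.66 and 11.68), Tmigd1 (9.27 and 11.55) and Slc51b were higher, and the other 16 were within 2-fold, with Krt20 at 12.10 and 12.53. None of 10 crypt base markers at the floor passed the rule (median -0.37). Of 17 goblet cell markers, with a median of 0.08, 2 were higher and 2 lower, with Spink4 (8.06 and 9.62) and Reg4 (6.18 and 7.41) higher and Kit and Ang4 lower. Among 11 enteroendocrine genes at the floor, 6 were above 0 and 5 below, with a median of 0.06. The glucagon gene Gcg (7.24 and 8.78) and Insl5 (7.90 and 8.92) were higher, Chga (8.64 and 7.46) was lower, and the other 8 were neither. Of 25 brush border genes, the alkaline phosphatase gene Alpi (7.96 and 9.73) and the peptidase gene Enpep (6.28 and 7.60) were higher, and Mep1a (11.29 and 9.85) and Cdhr1 (6.38 and 5.26) were lower. The calls of Clca4a, Reg4, Kit, Insl5 and Cdhr1 were lost on other scales.

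Junction and mucin genes had few members past the rule. Among 31 junction and membrane mucin genes, 1 was higher and 2 lower. A difference below 0 was found in 22, against 5290 of all 10282 genes, and the median was -0.24. Muc1, a membrane mucin gene, read 6.76 and 5.04, the claudin gene Cldn8 8.21 and 7.03, and Ceacam18 6.29 and 7.73. Of 32 mucin glycosylation genes, B4galnt2 (11.54 and 10.13) was lower, and Gcnt4 (1.33) and the fucosyltransferase gene Fut2 (1.03) were higher, both lost on other scales. Of 32 BMP, hedgehog and Wnt genes, the hedgehog ligand gene Ihh (8.33 and 7.17) and the Wnt receptor gene Fzd5 (8.83 and 7.73, lost on 3 other scales) were lower and Id4 (6.54 and 7.72, lost on 1) higher. None of 11 mitosis genes at the floor passed the rule (median 0.28), while 9 of them were higher in crypt cells (median 1.39). Of 17 replication genes, Rrm2, a ribonucleotide reductase subunit gene, read 5.51 and 7.65, and of 16 ribosome biogenesis genes Rrs1 was higher (1.01, lost on 1 other scale).

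Of 28 transcription factor genes of the gut epithelium, 3 were higher and 2 lower. In 23 the difference was below 0, against 5290 of all 10282 genes, and the median was -0.31. Hnf4g, encoding a nuclear receptor of enterocyte differentiation, read 7.96 and 6.05, and Isx, a repressor of carotenoid uptake, 7.95 and 6.44. The caudal factor gene Cdx2 differed by -0.81 and Klf5 by -0.89. Creb3l3, Zbtb16 (6.25 and 8.26) and Prdm1 (5.98 and 7.59) were higher. Of 32 nuclear receptor genes and partners, Nr4a1 was higher, and Hnf4g, Ppargc1a and the clock repressor gene Nr1d1 (10.74 and 9.71) were lower. Of 13 circadian clock genes, a list drawn up after the values were seen, Nr1d1 and Dbp (9.13 and 8.07) were lower, with crypt differences of -1.02 and -0.86, and both lost their surface calls on other scales.

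Genes of the Hoxa cluster, which record position along the gut, were examined after a run of lower neighbours was seen. Of 9 members at the floor, 5 were lower, 8 had a difference below 0, and the median was -1.03 in surface cells and -0.22 in crypt cells. Hoxa5, Hoxa6, Hoxa7 and Hoxa9 form the run at chr6:52201754-52227370. Hoxa7 read 7.91 and 6.32, Hoxa9 8.07 and 6.77, Hoxa5 7.63 and 6.56, and Hoxa6 differed by -1.03. Hoxa3 (-1.11) was lower too, Hoxa10 (-0.88), Hoxa4 (-0.78) and Hoxa11 (-0.63) had differences of the same sign, and Hoxa13, the end gene of the cluster, read 8.10 and 8.53. Of the other Hox genes, 5 were at the floor and none passed the rule, with Hoxb13 at 9.66 and 9.24. Hoxa7 and Hoxa9 kept their calls on all 5 other scales, and Hoxa3, Hoxa5 and Hoxa6 did not. Whether the captured stretch of colon differed between the pools was not tested.

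**Figure D4:**
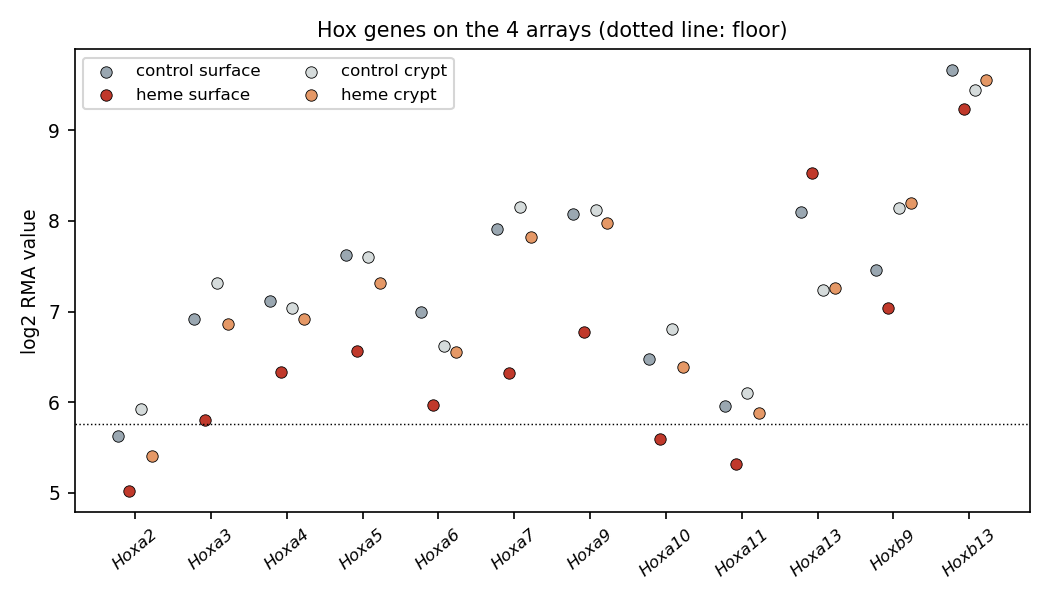
Log2 RMA value of 12 Hox genes on the 4 arrays, 1 point per array, with the floor as a dotted line. From Hoxa3 to Hoxa11 the heme surface array (red) is the lowest of the 4, and for Hoxa13 it is the highest, at 8.53.

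Some of the largest differences lay outside the lists. Vsig1, a junction protein gene of the stomach, read 4.98 and 8.58. Ada, which deaminates adenosine, read 5.45 and 8.35, Ddc, which makes dopamine and serotonin, 7.98 and 10.80, and the monoamine oxidase gene Maob 6.70 and 9.34. Ch25h, a cholesterol hydroxylase gene, read 3.75 and 6.53, and Fst, the activin antagonist follistatin, 4.70 and 7.33. On the lower side were the deiodinase gene Dio1 (9.55 and 6.46), the histamine-degrading diamine oxidase gene Aoc1 (10.43 and 8.56), Tppp (8.45 and 6.12), its paralog Tppp3 (7.95 and 5.66), the muscle atrophy ligase gene Fbxo32 (10.37 and 8.41), the hexokinase-like gene Hkdc1 (8.43 and 6.63) and the endothelin gene Edn1 (9.57 and 7.83). A run of 3 lower neighbours, Rftn2 (-1.21), Gm10561 (-2.13) and Mars2 (-1.05), stands on chromosome 1. The calls of this run were not followed over the other scales.

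The extreme values on each side included genes without established names, which the naming rule leaves out and which are given after their values were seen. The largest difference below 0 was that of 2210407C18Rik, from 9.61 to 4.84, with a crypt difference of -0.84. The noncoding gene Gm10768 read 2.84 on control and 7.41 on heme and lies next to Abcc2. Its values in crypt cells were 2.72 and 2.86. At the edge of the size rule, Cep20, Hsdl2 and Cyp4f16 were just inside and S100a14, Igfbp4 and Psmd5 just outside on the higher side, all at 1.00 after rounding. On the lower side Ltbp4, H2-Q2 and Ogn were just inside and Ttll10, Crim1 (-0.99) and Hpd (-0.99) just outside.

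The crypt arrays, from the same mice, gave a second reading of the diet that shares no array with the surface one. In crypt cells 187 of 10491 genes were higher (1.78%) and 125 lower (1.19%). Of the 372 genes higher in surface cells, 41 were also higher in crypt cells, which is 11.0% of the 372 and 21.9% of the 187. Of the 372, 294 had a crypt difference above 0, and the median crypt difference was 0.33. Of the 207 lower genes, 27 were lower in crypt cells, which is 13.0% of the 207 and 21.6% of the 125, and 181 had a crypt difference below 0, with a median of -0.42. Over all 10282 genes, 50.5% had a crypt difference above 0, with a median of 0.00. Pck1, which starts glucose synthesis from oxaloacetate, was past the rule in opposite directions, at 8.60 and 9.67 in surface and 8.74 and 7.71 in crypt cells.

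**Figure D5:**
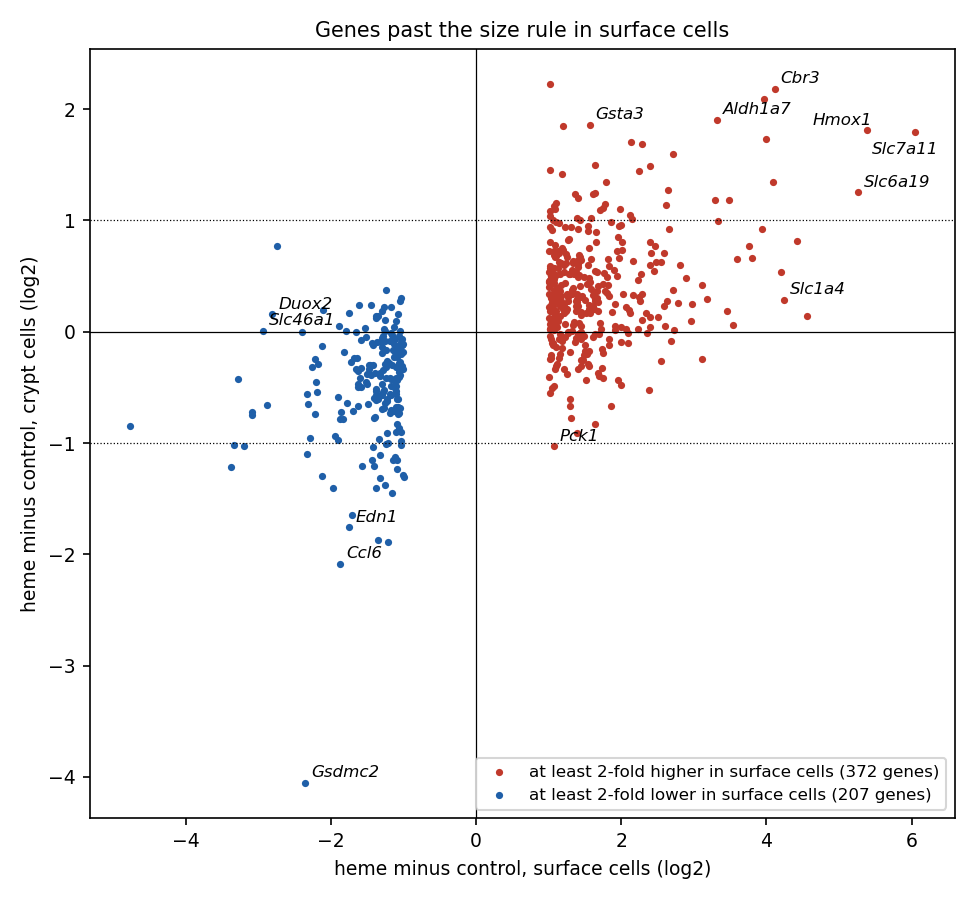
Heme minus control (log2) in surface cells (x axis) and in crypt cells (y axis) for the 372 higher (red) and 207 lower (blue) genes, 1 point per gene, with 2-fold in crypt cells as dotted lines. Most points lie inside the dotted lines, 41 red ones lie above the upper line and 27 blue ones below the lower line.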

How the data were processed

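RNA of surface and crypt cells was pooled within each diet and labelled for Affymetrix arrays from 100 ng, per the labels' protocols, with 1 array in each of the 4 groups. Per the submitters' processing notes, the deposited log2 value of each probe set came from RMA, which corrects background, normalizes by quantiles and summarises probes. Which arrays entered that normalization, and the version, were not given in the sources used here.

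Of 35556 probe sets, 21789 had 1 gene symbol in the platform annotation, 1621 had several and 12146 had none. Only the first kind was used. Among the others at or above the floor of 5.75, 215 were past 2-fold higher and 181 lower in surface cells and name no gene here. Of 671 described genes with several probe sets, 36 were past 2-fold, 29 of them by every probe set and none with opposite signs. Differences, gene lists and the promoter search were computed with pandas 2.3.3 and numpy 2.4.6 in Python 3.11.15, and cyclic loess with limma 3.58.1 in R 4.3.3. Figures used matplotlib 3.10.9. No p-value was computed.

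The members and the 56 gene lists (1636 genes, of which 1215 reached the floor) were chosen with earlier results of these data known, and 5 more lists were added later. Genes were named from a pool set by rule, and not every gene of the pool is named. The pool held the 40 largest differences each way, without predicted genes, microRNAs, small nucleolar RNAs and receptor or immunoglobulin families. It also held list members past the rule, the 4 next largest of each list, members of lists of 12 or fewer, and runs of 3 or more neighbours. Aqp8, Krt20, Lgr5, Nfe2l2, Keap1, Fth1, Blvrb, Slc40a1, Cpt1a, Vegfa, Stat2, Irf9, B2m, 2210407C18Rik, Gm10768, Pck1 and the genes at the edge of the size rule were named from outside the pool, after their values were seen.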

Additional observations from a re-analysis of the deposited data

Results flagged for a closer look

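Pck1, encoding the enzyme that turns oxaloacetate into phosphoenolpyruvate, was past the 2-fold rule in opposite directions in the 2 compartments. It differed by 1.08 in surface cells, from 8.60 to 9.67, and by -1.03 in crypt cells, from 8.74 to 7.71. It was the only gene of the 579 past the rule in surface cells to do so. Each value rests on 1 array, and the difference between compartments was not tested.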

How the results depend on the processing

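The counts of 372 higher and 207 lower genes stayed within 1.5 times under most alternatives. They became 1084 and 814 at 1.5-fold and 141 and 55 at 3-fold. With log2(2^value + 32), 123 genes were lower, and with the floor at the 75th percentile of all values (7.53), 137 were. With both arrays at or above the floor, 282 of 9303 genes were higher and 153 lower. Of the 372 and 207 genes, 339 and 187 were still called after cyclic loess and 275 and 195 after quantile normalization of genes. The median difference became 0.11 when arrays were centred on ribosomal protein genes. None of the 579 genes changed sign under any of the 12 alternatives. Of 55 list medians, 45 kept their sign on all 5 other scales, and the median of the bile acid list became -0.017 with no floor. No paired analysis was possible because each group is 1 pool on 1 array. A gene near the floor has an uncertain difference, and the spread between mice cannot be judged from pools.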
